A study of Mus musculus with 2 samples.

Results

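Cxcl1, Cxcl2, Cxcl3, Cxcl5 and Ppbp code for 5 chemokines that attract neutrophils, and Cxcr2 codes for the receptor they share. These 6 genes, of 32285 in the deposited count matrices, were picked by their gene symbols with earlier results on the same libraries known, so their levels are given as a description and carry no test. Single cells of mouse maxillary periodontium, the gum, ligament and bone that hold the upper teeth, were profiled as polyA RNA with the 10x Chromium 3′ v3 kit in 2 libraries, titled RP and 377P. The series title speaks of diabetic periodontitis in resolution. Neither title is explained in the labels, which give no genotype, strain, age, treatment or number of animals, so neither library is taken as a control. With 1 library per title there is no replicate check. Every interval below is a 95% interval for counting error only, which is too narrow where a few cells hold many of the molecules.

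Chemokines of the CXC type that carry the amino acids glutamate, leucine and arginine before their first cysteines bind CXCR2 on neutrophils. They are made after stimulation by interleukin-1, TNF, interleukin-17 or microbial products, often through the transcription factor NF-κB, and guide neutrophils out of blood vessels and towards an epithelial surface. In the gum, a steady flow of neutrophils through the epithelium beside the tooth is part of the normal defence against the bacterial film, and mice that lack Cxcr2 are known to develop periodontal bone loss.

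All 5 ligand genes lie side by side on the plus strand of mouse chromosome 5 (GRCm38, the build called mm10; gene bounds from GENCODE). Their order is Cxcl5 at chr5:90759360-90761624, Ppbp at chr5:90768518-90770063, Cxcl3 at chr5:90786103-90789600, Cxcl1 at chr5:90891241-90893115 and Cxcl2 at chr5:90903871-90905938. Pf4, which codes for platelet factor, lies between Ppbp and Cxcl3, and Cxcl15, which codes for a related chemokine best known from lung, lies between Cxcl3 and Cxcl1. Cxcr2 is on chromosome 1, at chr1:74153989-74161246 on the plus strand, near its relative Cxcr1 at chr1:74191785-74194631 on the minus strand. Among these 9 genes, no stretch of 25 bases was shared between the last 500 bases of any pair of annotated transcripts, the part that a 3′ library reads. The 120 bases before the RefSeq start site (GRCm38.p6, plus strand) are shown because 3 of the members share a run of bases. These 3 are not a group by their levels in the cells, where Cxcl1 differed from Cxcl2 and Cxcl3. Of the 6 members, 5 had a RefSeq promoter entry, and Cxcl5 is named only. Capitals mark GGGAATTTCCC, the longest run of bases that the windows of Cxcl1, Cxcl2 and Cxcl3 share (11 bases, the next being 8), whose letters are of the type that NF-κB binds. The windows are chr5:90891125-90891244 for Cxcl1, chr5:90903779-90903898 for Cxcl2, chr5:90785981-90786100 for Cxcl3, chr5:90768398-90768517 for Ppbp and chr1:74153874-74153993 for Cxcr2.
Cxcl1: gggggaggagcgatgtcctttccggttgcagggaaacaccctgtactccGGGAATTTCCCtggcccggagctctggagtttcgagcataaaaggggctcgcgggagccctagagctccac
Cxcl2: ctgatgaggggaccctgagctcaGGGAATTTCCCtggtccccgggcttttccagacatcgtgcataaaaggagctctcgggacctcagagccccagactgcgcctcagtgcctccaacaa
Cxcl3: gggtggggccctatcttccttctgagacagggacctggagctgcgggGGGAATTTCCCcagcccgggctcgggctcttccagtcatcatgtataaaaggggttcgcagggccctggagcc
Ppbp: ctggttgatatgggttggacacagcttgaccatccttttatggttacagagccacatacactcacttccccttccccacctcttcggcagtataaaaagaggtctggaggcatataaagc
Cxcr2: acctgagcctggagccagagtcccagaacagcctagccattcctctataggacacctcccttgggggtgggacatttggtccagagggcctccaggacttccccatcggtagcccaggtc
The first base of the run lay at -71, -97 and -73 from the RefSeq start sites of Cxcl1, Cxcl2 and Cxcl3. The Cxcl2 window ends at 90903898, past the GENCODE gene start of 90903871, so its position depends on the start used. With both strands searched, the run was in 9 of 32851 RefSeq windows of the same length (0.0274%), and not in those of Ppbp and Cxcr2. As it was taken from these 3 windows, their matches are given by choice. TATAAA stood at -30 in Cxcl3 and at -30 and -8 in Ppbp, and in 6.34% of all windows. TGANTCA, the form bound by AP-1 factors, was in none of the 5 windows and in 3.41% of all. A match describes letters and not a bound site, and these motifs do not overlap each other.

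After filtering, 16721 cells of RP and 14515 of 377P remained, with 113547598 and 114641515 UMIs (unique molecular identifiers, each counting 1 captured mRNA) and medians of 4301 and 5102 UMIs per cell. Cells were sorted by lists of marker genes, none of them a member, into gates, of which 11 held at least 50 cells in each library. A gate is a range of a per-cell score and not a type. In the main gates, the cells near its limit numbered 242 of 4001 and 150 of 3867 for epithelium, 133 of 3970 and 98 of 2830 for fibroblasts, 66 of 626 and 31 of 296 for monocytes or macrophages, and 19 of 183 and 12 of 127 for neutrophils (RP and 377P in each pair). As the lists sorted the cells, a high level of a gate's own list is given by choice and is no check. The neutrophil list had a median over cells of 596 UMIs per 10000 in RP and 795 in 377P within the neutrophil gate, against 0.450 and 0.716 in the epithelial gate. Macrophage markers had medians of 19.2 and 16.8 in the neutrophil gate, against 123 and 89.1 in their own. Gland products such as Muc5b and Pip were found in all gates, with medians of 100.2 in RP and 15.7 in 377P per 10000 in the epithelial gate and 225 and 27.5 in the neutrophil gate. RP and 377P shared 82 barcodes, of which 69 were kept in both. Clusters made without the members put the epithelial cells of RP mainly in clusters 2, 3 and 1 and those of 377P in clusters 4, 5 and 3, and the fibroblasts in cluster 7 for RP and cluster 9 for 377P, whereas neutrophils (cluster 23), macrophages (cluster 6), perivascular cells (clusters 0 and 19) and blood endothelium (clusters 12 and 14) shared theirs. The B gate, whose cells should hold little of any member, serves as the measure of RNA freed from other cells. Its median depth was 2264 UMIs in RP (cluster 21) and 2585 in 377P (cluster 32). Gates differed in depth, so an equal CPM is not an equal number of freed UMIs per cell.

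**Figure D1:**
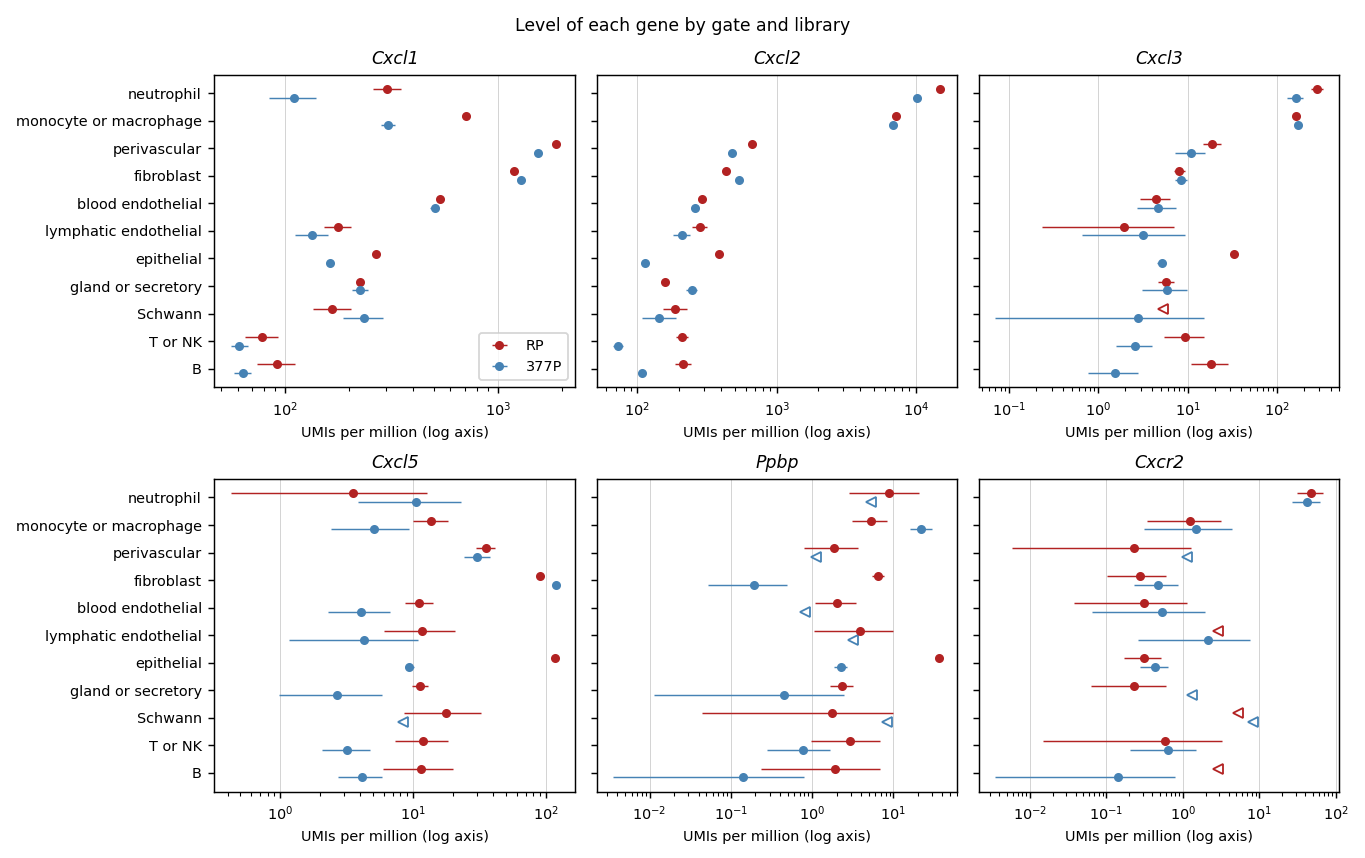
Level of each member (UMIs per 1000000 of the gate, log axis) in the 11 gates, with RP above 377P and bars for the exact 95% Poisson interval; an open triangle marks the 3-count floor where a gate had no UMI. Cxcl1 is highest in perivascular cells and fibroblasts, Cxcl2 and Cxcl3 in neutrophils and macrophages, Cxcl5 in fibroblasts of both libraries and epithelium of RP, Ppbp in epithelium of RP, and Cxcr2 in neutrophils.

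The ligands differed in the cells that held them. Cxcl1 came mainly from stroma, Cxcl2 and Cxcl3 were densest in myeloid cells, and most UMIs of Cxcl5 and Ppbp lay in fibroblasts or epithelium. In the epithelial gate all 6 members had at least 20 UMIs and 4 of them (Cxcl2, Cxcl3, Cxcl5 and Ppbp) were at least 2-fold higher in RP than in 377P, where 8.64% of 17960 genes were. No member was at least 2-fold higher in 377P there, where 2.27% of genes were. Fibroblasts had 1 of 5 members at least 2-fold higher in RP (Ppbp, 87 of whose 140 UMIs lay in 1 cell), beside 3.6% of genes, and none in 377P, beside 2.99%. The neutrophil gate had 1 of 4 (Cxcl1) in RP, beside 6.19% of genes, and none in 377P, beside 4.29%. Of 5 members in the macrophage gate, Cxcl1 and Cxcl5 were past 2-fold in RP, beside 5.9% of genes, and Ppbp in 377P, beside 2.28%. None of 4 members in perivascular cells was past it in either library, beside 3.45% of genes in RP and 2.31% in 377P. Lymphocyte gates had 3 of 4 members (T or NK, 6.3% of genes) and 2 of 4 (B, 5.75% of genes) past it in RP, at the low levels described with each gene, and none in 377P (3.41% and 4.06% of genes). Blood endothelium had 1 of 4 (Cxcl5, 4.17% of genes) and the gland gate 2 of 5 (Cxcl5 and Ppbp, 6.75%) in RP, and neither had any in 377P (3.12% and 3.26%). Lymphatic and Schwann gates had none of 2 in either direction, beside 2.8% and 4.57% of genes in RP and 3.31% and 4.01% in 377P. The members were chosen with these ratios known, so nothing is read from the counts.

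Cxcl1, the main neutrophil attractant of mouse stroma, was a product of perivascular cells and fibroblasts. Perivascular cells held 1888 UMIs per 1000000 (CPM) in RP (interval 1847 to 1929) and 1541 in 377P (1494 to 1589), 1.22-fold higher in RP (1.18 to 1.27). Fibroblasts held 1191 CPM in RP and 1288 in 377P, a ratio of 0.925 (0.909 to 0.941). The order of these gates was the same in the 2 libraries, and their ranges did not overlap. Because fibroblasts were many, they carried 43.0% of all Cxcl1 UMIs of RP and 58.5% of those of 377P, against 13.5% and 8.89% for perivascular cells. A UMI was found in 69.5% of fibroblasts of RP and 71.4% of those of 377P, or 44.2% and 43.1% after each cell was thinned to 1000 UMIs (82 and 165 shallower fibroblasts left out). In B cells the shares were 21.7% and 18.0%, or 9.09% and 6.28% thinned.

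Within the fibroblast gate Cxcl1 was densest in cells with markers of the inflammatory state (Ptx3, Ccl2, Mmp3, Il6 and Mmp10), at 2274 CPM in 589 cells of RP and 2574 in 524 of 377P. Universal fibroblasts, marked by Pi16 and Dpp4, held 1129 and 997 CPM, and ligament-type fibroblasts, marked by Postn and Aspn, held 732 and 707. The inflammatory cells thus stood above perivascular cells, and ligament-type cells were the lowest of the 3 in both libraries. Ccl2 and Il6, which sorted the inflammatory cells, are also on the list of genes induced along with the ligands. The rank of these cells is thus partly given by choice, and perivascular cells were not sorted in this way.

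Blood endothelium held 538 CPM of Cxcl1 in RP and 506 in 377P, and its venous part, through which neutrophils leave the blood, held 643 and 696. Macrophages held 708 CPM in RP and 306 in 377P, 2.32-fold higher in RP (2.12 to 2.54), and were, beside neutrophils, the only gate in which Cxcl1 was past 2-fold. The resident part (C1q and Mrc1 markers) had 757 and 356 CPM and the monocyte-type part 559 and 247, so the gap was in both. Epithelium held 269 and 163 CPM, 1.65-fold higher in RP (1.61 to 1.69), with 63 to 64% of cells positive in each library before thinning and 18.1% in RP against 13.6% in 377P after it. Neutrophils held 302 CPM in RP and 110 in 377P, but 90 of their 173 UMIs in RP lay in 1 cell. The gland gate (226 and 225 CPM) lay above lymphatic endothelium (177 and 133) in both libraries, and the range of Schwann cells (167 and 235) overlapped both. T or NK cells (77.9 and 61.1) were no higher than B cells (91.7 and 63.5). The part of RNA from other cells there was not tested.

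Cxcl2, an early product of activated neutrophils and macrophages, was denser in these cells than any other member in any gate. Neutrophils held 14802 CPM in RP (14489 to 15121) and 10183 in 377P (9923 to 10447), 1.45-fold higher in RP (1.41 to 1.503). Cell by cell, the neutrophils of RP ranged between 0 and 321 UMIs with a median of 33, and those of 377P between 0 and 344 with a median of 26. The cells of the libraries thus overlapped over nearly their whole range. A Cxcl2 UMI was present in 96.2% of neutrophils of RP and 92.9% of those of 377P, and in 93.9% and 88.1% after thinning, against 27.1% and 17.8% of B cells, or 13.8% and 7.50% thinned. Macrophages held 7210 CPM in RP and 6855 in 377P, a ratio of 1.05, with cell medians of 17 and 20 UMIs and highest cells of 551 and 404. Resident macrophages (7272 and 6762 CPM) and monocyte-type cells (7671 and 6995) differed little from each other.

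The lower Cxcl2 level of macrophages was 10.3-fold the highest level of any other gate but neutrophils. Perivascular cells held 667 CPM in RP and 475 in 377P, and fibroblasts 436 and 537, a ratio of 0.812 (0.790 to 0.835), with 913 and 1188 in the inflammatory fibroblasts. Epithelium held 388 CPM in RP (382 to 394) and 114 in 377P (111 to 117), 3.40-fold higher in RP (3.31 to 3.50). Over the whole gate the level in 377P epithelium was close to that of its B cells (108 CPM), but its suprabasal cells (146) and its cells of cluster 3 (279), described with the layers, were above it. The median depth was 13908 UMIs in 377P epithelium and 2585 in its B cells. A like CPM thus does not place the epithelium at the level of freed RNA. RP epithelium was above its B cells (214). T or NK cells held 210 and 72.9 CPM, at or below the B-cell level in each library. The epithelium of RP carried 23.6% of all Cxcl2 UMIs of its library and that of 377P 14.6%, next to 31.6% and 30.0% in macrophages, 12.8% and 24.8% in fibroblasts and 11.5% and 12.8% in neutrophils, which were only 1.09% and 0.875% of kept cells.

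Among the gates, Cxcl3 was densest in neutrophils and macrophages, like Cxcl2, at a far lower level. Unlike Cxcl2, it had more of its UMIs of RP in epithelium than in macrophages. Neutrophils held 283 CPM in RP (241 to 330) and 162 in 377P, from 162 and 93 UMIs, 1.74-fold higher in RP (1.34 to 2.28). Macrophages held 165 and 173 CPM, a ratio of 0.956 (0.834 to 1.10), and the ranges of these myeloid gates overlapped. Within the macrophage gate, monocyte-type cells held 285 CPM in RP and 267 in 377P, above the resident cells at 141 and 126 in both libraries, a split that Cxcl2 did not have. Epithelium held 32.8 CPM in RP and 5.11 in 377P, 6.41-fold higher in RP (5.65 to 7.28). It supplied 49.6% of the Cxcl3 UMIs of RP and 24.6% of those of 377P, against 18.1% and 28.5% from macrophages. B cells held 18.1 and 1.54 CPM, from 19 UMIs in RP, of which 11 were in 1 cell, and 11 in 377P. Shares of cells with Cxcl3 were 7.60% and 2.59% in epithelium (1.79% and 0.345% thinned), against 1.99% and 0.359% in B cells (0.587% and 0.091% thinned). Fibroblasts held 8.10 and 8.47 CPM, below the B cells in RP, whose level rests on that cell, and above them in 377P.

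Cxcl5, a chemokine known as a product of epithelium and stroma more than of leukocytes, was the member whose main source differed most between the libraries. Fibroblasts held 89.8 CPM in RP (85.9 to 93.9) and 119 in 377P (114 to 124), a ratio of 0.756 (0.712 to 0.802). Epithelium held 116 CPM in RP (113 to 119) and 9.35 in 377P (8.58 to 10.2), 12.4-fold higher in RP (11.3 to 13.5). In RP the epithelial gate carried 54.5% of all Cxcl5 UMIs and fibroblasts 20.5%, and in 377P epithelium carried 16.4% and fibroblasts 75.4%. Cells with a UMI were 16.1% and 5.97% of epithelium (4.76% and 0.823% thinned to 1000 UMIs, with 153 and 101 shallower cells left out) and 16.5% and 18.2% of fibroblasts (6.10% and 7.05% thinned), against 3.42% and 1.26% of B cells (1.17% and 0.546% thinned). The median depth of the epithelial cells was 9531 UMIs in RP and 13908 in 377P, so that the library with fewer positive epithelial cells was the deeper one.

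The lower fibroblast level of Cxcl5 in RP lay in the inflammatory cells, which had 167 CPM in RP and 294 in 377P (ratio 0.567, interval 0.512 to 0.627). Universal fibroblasts held 61.4 CPM in each library, and ligament-type cells 75.8 and 64.5. Perivascular cells held 35.1 and 30.4 CPM. Neutrophils had 2 and 6 UMIs of Cxcl5 and macrophages 44 and 10 (13.6 and 5.02 CPM), against a B-cell level of 11.5 and 4.07. These leukocytes were thus near the B-cell level. Blood endothelium (11.1 and 4.06 CPM), the gland gate (11.3 and 2.68) and T or NK cells (11.8 and 3.19) were at that level too.

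**Figure D2:**
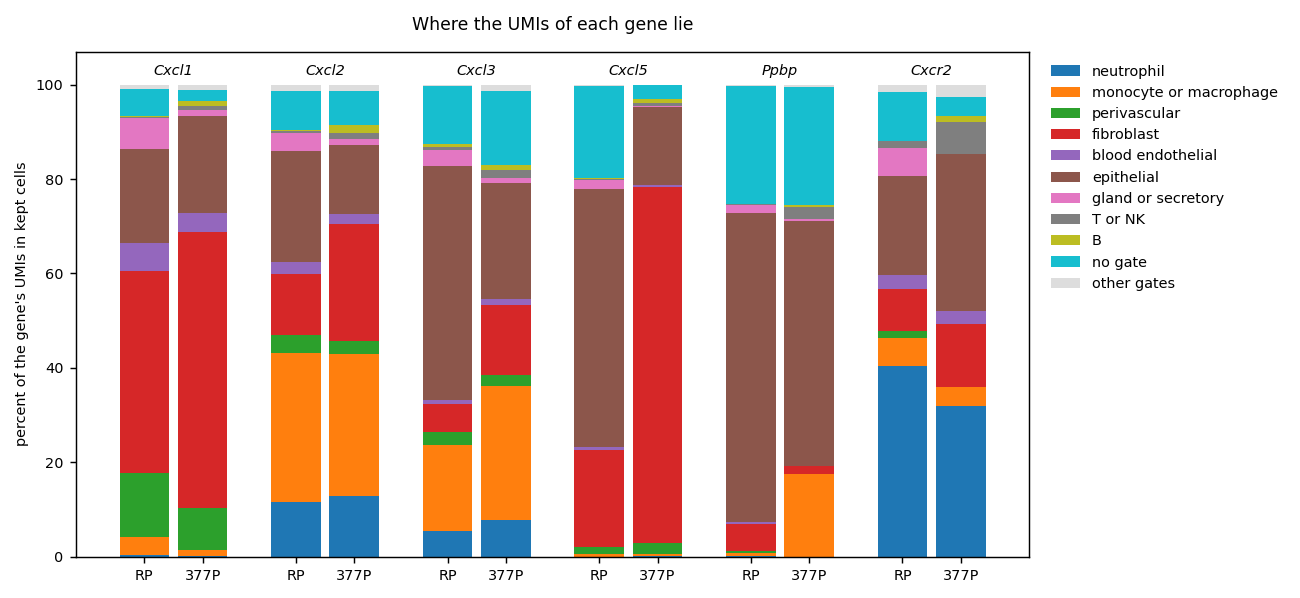
Share of each member's UMIs that fell in each gate (percent of the library's UMIs of that gene), with the RP bar left of the 377P bar in each pair and the gates stacked in colours. Epithelium holds 54.5% of Cxcl5 in RP and 16.4% in 377P, fibroblasts hold 20.5% and 75.4%, and neutrophils hold 40.3% and 32.0% of the few Cxcr2 UMIs.

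Ppbp codes for pro-platelet basic protein, which platelets store and which is cut to a neutrophil attractant, and is widely used as a platelet marker. Here most of its UMIs lay in the epithelial gate, although in 377P its level was higher in macrophages. The epithelial gate had 1628 UMIs in RP (36.5 CPM) and 130 in 377P (2.24 CPM), 16.3-fold higher in RP (13.6 to 19.6), which was 65.5% and 52.0% of each library's total, and a further 24.9% and 25.2% lay in cells that no gate took. The platelet gate held 1 cell in each library. Platelet markers in the epithelial gate summed to 7.12 CPM in RP and 8.13 in 377P, of which Itga2b made 6.49 and 7.68, and Gp1bb had 14 and 2 UMIs. Of the 8 markers, Gp9, Treml1 and Clec1b were at 0 in RP and none was at 0 in 377P, where these 3 had 2, 1 and 1 UMIs. Only 4.25% and 0.879% of epithelial cells had a Ppbp UMI (0.988% and 0.133% thinned), against 0.570% and 0.0449% of B cells (0.293% and 0% thinned). Macrophages had 17 UMIs in RP and 44 in 377P (5.27 and 22.1 CPM), a ratio of 0.239 (0.128 to 0.426), and 42 of the 44 were in the resident part, with 15 in 1 cell. The platelet list in that gate had 20 and 8 UMIs, with 4 and 5 of its 8 markers at 0; its part in the result was not tested. In fibroblasts Ppbp had 140 and 4 UMIs, and in the gland gate 40 and 1, a ratio of 5.23 (0.887 to 212). Without the highest cell of each library, an alternative chosen after seeing the data, the log2 ratio of fibroblasts was 4.10 in place of 5.09.

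Within the epithelium the ligands did not follow 1 layer. Basal cells (3209 of RP and 3399 of 377P) held 251 and 160 CPM of Cxcl1, and suprabasal cells, which have left the basement membrane (452 and 249), held 289 and 204. Cxcl2 was 288 CPM in RP and 111 in 377P in basal cells, and 632 and 146 in suprabasal cells, so the gap between libraries was 2.59-fold in basal and 4.34-fold in suprabasal cells. For Cxcl5 the basal values were 86.3 and 9.66 CPM, 8.93-fold higher in RP (8.12 to 9.85), and the suprabasal ones 220 and 6.04 CPM, 36.4-fold higher in RP (25.3 to 54.6). Suprabasal cells of 377P were thus not above its basal cells for Cxcl5, whereas those of RP were. Ppbp was denser in suprabasal cells of both libraries, with 130 and 7.29 CPM against 9.80 and 1.60 in basal cells. The epithelial gate held 30 cells of RP and 3 of 377P from the small cluster led by Psca, which is described below. Among those of RP were the gate's highest cells for Cxcl5 (483 UMIs) and Ppbp (151 UMIs). Basal and suprabasal cells of RP had 2943 and 1370 UMIs of Cxcl5 in all. The layers of the Psca-led cells, and the layer ratios without them, were not tested. The epithelial cells put in no layer or other class (310 and 184) had more Cxcl2 than either layer in RP, 849 CPM against 121 in 377P, and 98.4 and 6.20 CPM of Cxcl3.

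Because the epithelial gate drew on different clusters in each library, the members were also read in cluster 3, which had 1114 epithelial cells of RP and 419 of 377P and was led by Scgb1c1, Amelx, Sprr1a and Cbr2. There Cxcl1 was at 312 CPM in RP and 248 in 377P, Cxcl2 at 886 and 279, Cxcl3 at 79.2 and 25.8, Cxcl5 at 219 and 44.4, and Ppbp at 46.0 and 16.0. The cluster held different cells in each library, however. At a finer resolution, 615 of its epithelial cells of RP and 1 of 377P lay in a cluster led by Amelx, Enam and Ambn, genes of the enamel-forming epithelium, and 1 of RP and 344 of 377P in a cluster led by Scgb1c1 and Bpifb3, so the values of cluster 3 set unlike cells side by side. A finer cluster that both libraries filled, led by Sprr1a, Spink5 and Hopx, had 442 epithelial cells of RP and 57 of 377P. There Cxcl1 was at 336 CPM in RP and 378 in 377P, so that its epithelial gap was turned, whereas Cxcl2 was at 1354 and 339, Cxcl3 at 133 and 34.4 (45 UMIs in 377P), Cxcl5 at 240 and 8.41 (11 UMIs in 377P), and Ppbp at 82.1 and 33.6 (44 UMIs in 377P), each of these 4 at least 2-fold higher in RP. Outside clusters 3 and 31 the log2 ratios of the epithelial gate were 0.78 for Cxcl2, 1.18 for Cxcl3, 2.13 for Cxcl5 and 2.51 for Ppbp, against 1.77, 2.68, 3.63 and 4.03 in the whole gate, so that the gap of Cxcl2 there was under 2-fold. These 3 readings were chosen after seeing the data.

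A small cluster, number 31, held much of the Cxcl5 and Ppbp of RP. It was led by Psca, Crct1, Clca3b, Prss27, Asprv1, Cnfn and Lce3a, several of them genes of late epithelial differentiation, and is left unnamed. It had 94 cells in RP, of which 30 were in the epithelial gate, 48 in none and 11 in the fibroblast gate, and 13 cells in 377P. In RP these 94 cells had 3348 UMIs of Cxcl5 (5222 CPM) and 1597 of Ppbp (2491 CPM), which was 35.3% and 64.3% of the library's UMIs of these genes. In 377P the 13 cells had 27 UMIs of Cxcl5 (366 CPM) and 67 of Ppbp (908 CPM), or 0.815% and 26.8%. Cxcl5 was found in 57 of the 94 cells of RP and 3 of the 13 of 377P, and Ppbp in 31 and 4. Cxcl3 was at 541 CPM in RP and 40.7 in 377P (3 UMIs), above its level in neutrophils in RP, and Cxcr2 had no UMI. All 12 epithelial markers were detected in both libraries (4810 and 3754 CPM in sum), as in every gate of at least 50 cells. Their detection thus does not name the cells. Gland markers summed to more than the epithelial list, 12950 CPM in RP and 5272 in 377P (2 of 12 at 0 in each), macrophage markers to 1516 and 94.9 (0 and 7 of 10 at 0), and neutrophil markers to 757 and 352 (2 and 8 of 11 at 0). Their part in the chemokine levels of the cluster was not tested. The platelet list had 2 UMIs in RP, with 7 of 8 markers at 0, and none in 377P.

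**Figure D3:**
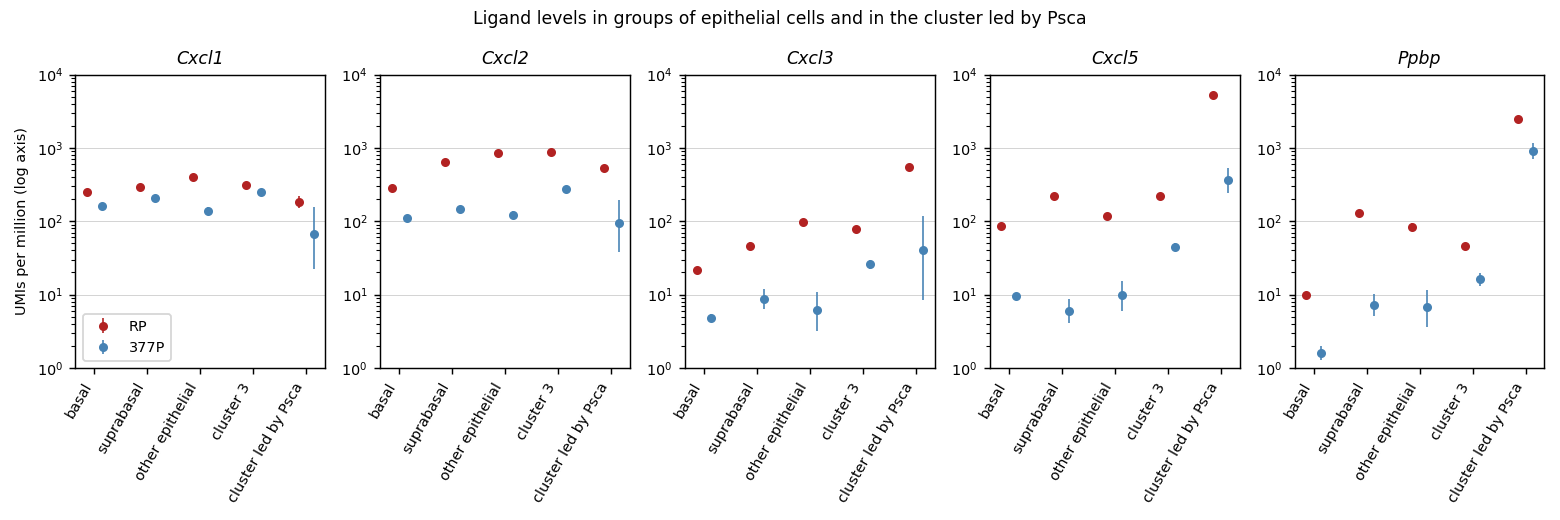
Level of the 5 ligands (UMIs per 1000000, log axis, exact 95% Poisson bars) in basal, suprabasal and other epithelial cells, in cluster 3 and in the cluster led by Psca, RP left of 377P in each pair. Cxcl5 and Ppbp reach 5222 and 2491 CPM in the Psca-led cells of RP, and in basal cells stand at 86.3 and 9.80 CPM in RP against 9.66 and 1.60 in 377P.

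In RP epithelium some pairs of ligands were found together in cells more often than others. After thinning to 1000 UMIs, 49.3% of the 69 cells with Cxcl3 also had Cxcl2, against 15.2% of the other 3779, and 36.2% had Cxcl5, against 4.18%. Of the 38 cells with Ppbp, 47.4% had Cxcl5, against 4.33% of the rest. Ppbp and Cxcl2 stood apart from this: 18.4% of the Ppbp cells had Cxcl2, against 15.7% of the rest. Unthinned, 51.3% of 304 Cxcl3 cells had Cxcl5, against 13.6% of the rest. The epithelial gate of RP held 30 cells of the Psca-led cluster, which was dense in Cxcl3, Cxcl5 and Ppbp. The part of those cells in these shares was not tested. In 377P only 13 thinned epithelial cells had Cxcl3 and 5 had Ppbp, too few to set beside these shares.

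Markers of other cells also differed between the libraries in the epithelial gate, though not only there. The 10 macrophage markers summed to 1064 CPM in RP and 139 in 377P, of which Lyz2 was 1014 and 116 (354 and 37.5 in the gland gate). The other markers were low, and several of them were over 2-fold higher in RP as well: C1qa was at 15.0 and 5.92 CPM, C1qb at 14.3 and 5.44, C1qc at 6.07 and 2.91 and Mrc1 at 3.49 and 1.45, while Csf1r was at 3.20 and 2.75. Neutrophil markers summed to 182 and 113 CPM, led by S100a9 at 98.4 and 55.1, with Csf3r at 0.873 and 0.344. Gland markers summed to 14944 and 2116 CPM. In the B gate the same gland list summed to 17894 and 3285 CPM. None of the 10, 11 or 12 markers of these lists was at 0 in the epithelial gate of either library. Their part in the epithelial chemokine levels was not tested.

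Cxcr2, through which all 5 ligands act on neutrophils, was sparse and densest in neutrophils. The libraries held 67 UMIs of it in RP and 75 in 377P, with at most 2 in a cell. Neutrophils held 27 and 24 of them (40.3% and 32.0%), or 47.2 CPM (31.1 to 68.6) in RP and 41.9 (26.8 to 62.3) in 377P, a ratio of 1.13 (0.626 to 2.04). The lower of these levels was 27.8-fold the higher level of macrophages (1.24 and 1.51 CPM, from 4 and 3 UMIs). A Cxcr2 UMI was seen in 13.1% of neutrophils of RP (8.59 to 18.9) and 18.1% of those of 377P (11.8 to 25.9), and in 6.13% and 6.78% after thinning, at median depths of 1850 and 2867 UMIs. B cells had 0 of 351 in RP, which allows a share of up to 0.855% of cells with a UMI and says nothing of how many express the gene at this depth, and 0.0449% in 377P. Epithelium, with 4001 and 3867 cells, had 14 and 25 UMIs, in 377P more than neutrophils. A gap between the libraries was not detectable at this depth.

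Neutrophils with a Cxcr2 UMI (24 in RP and 23 in 377P) held 13840 and 10850 CPM of Cxcl2, and those without one (159 and 104) held 15067 and 10017. The receptor and the ligand were thus in the same cells, and the sign of the small gap between them differed by library. Cxcr1, the second receptor of this type, had 1 UMI in RP, in a fibroblast, and 2 in 377P, both in neutrophils. Cxcl15 had 8 and 1 UMIs.

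**Figure D4:**
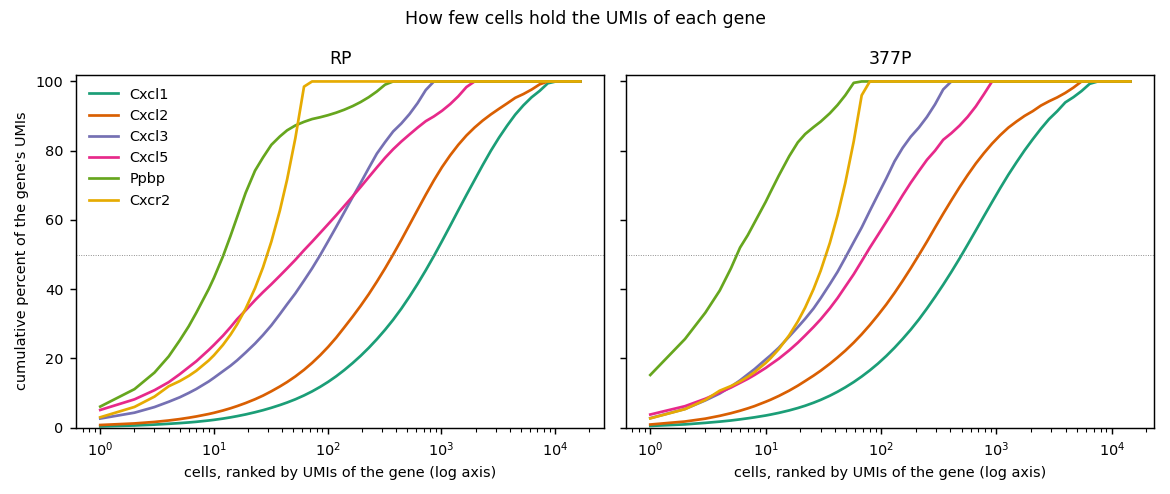
Share of each member's UMIs (percent, vertical) held by the cells ranked highest for it (number of cells, log axis), RP in the left panel and 377P in the right; the dotted line marks 50%. The curves of Ppbp rise earliest, with 13 cells of RP and 6 of 377P holding 50% of its UMIs, and those of Cxcl1 latest.

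Few cells carried most of each ligand. Counting down from the cell with the most, 50% of the UMIs of Cxcl1 lay in 876 cells of RP and 503 of 377P, those of Cxcl2 in 377 and 215, those of Cxcl3 in 87 and 51, those of Cxcl5 in 58 and 74 and those of Ppbp in 13 and 6. The highest single cell had 483 UMIs of Cxcl5 in RP and 125 in 377P. Cells with at least 10 UMIs held 83.1% of Ppbp in RP and 52% in 377P. Cxcl5 was the only ligand spread over more top cells in 377P than in RP.

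**Figure D5:**
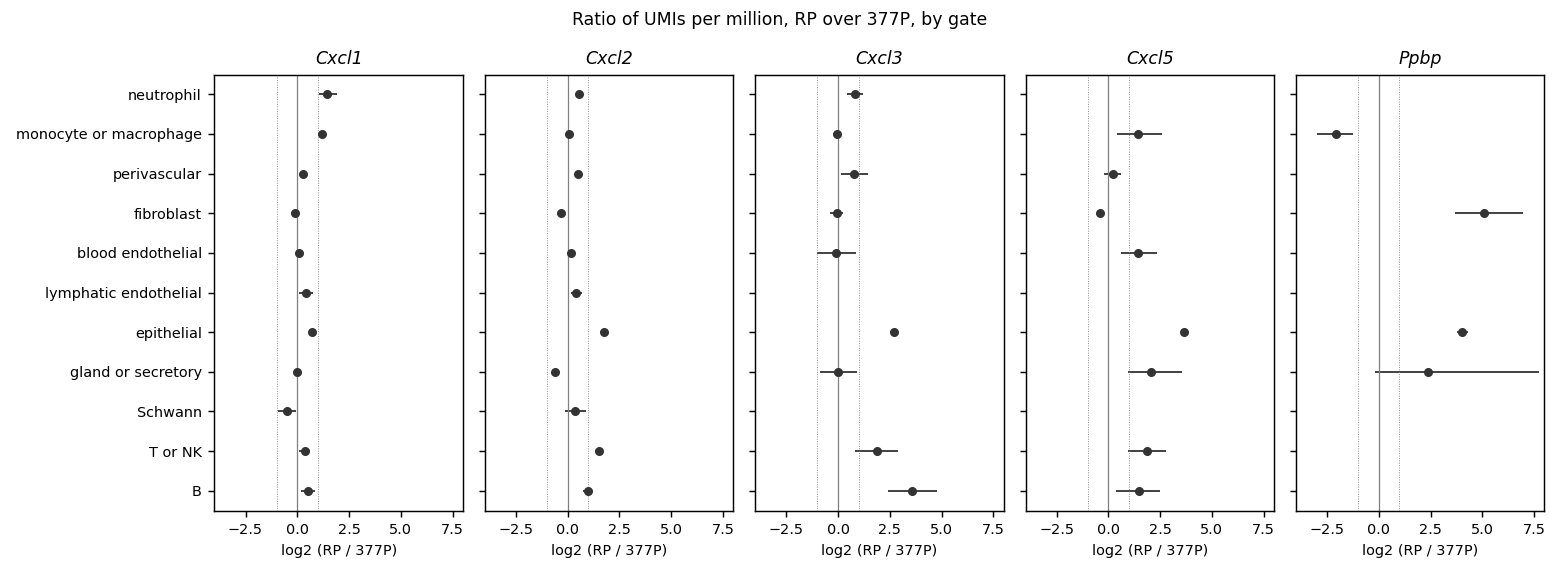
Log2 ratio of RP over 377P for the 5 ligands in gates with at least 20 UMIs, with exact 95% intervals for counting error and dotted lines at 2-fold. The epithelial ratios run between 0.72 for Cxcl1 and 4.03 for Ppbp, while those of fibroblasts are -0.11 for Cxcl1, -0.30 for Cxcl2 and -0.40 for Cxcl5.

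Pf4, which sits between Ppbp and Cxcl3, followed neither neighbour. It was a macrophage gene here, with 1098 CPM in RP and 1235 in 377P (ratio 0.890, interval 0.845 to 0.937), and 1402 and 1600 in the resident part. In epithelium it was at 13.1 and 5.01 CPM, 2.62-fold higher in RP, and in B cells at 25.8 and 9.41, 2.74-fold higher in RP. Its epithelial CPM was thus below that of B cells, which were shallower. The part of RNA from other cells in these levels was not tested.

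Genes that act around these chemokines were read from 8 lists with 76 genes found in the matrices. In epithelium 72 of them had at least 20 UMIs, of which 16 were at least 2-fold higher in RP and 3 in 377P, beside 8.64% and 2.27% of all genes, and the same shares hold for the list counts that follow. Among the cytokines that induce the ligands, Tnf was at 28.1 CPM in RP and 6.71 in 377P, 4.19-fold higher in RP (3.73 to 4.70), Il1a, an alarm cytokine of keratinocytes, at 15.8 and 4.53, 3.50-fold higher (3.03 to 4.04), and Il17c, which epithelium makes and answers, had 57 and 28 UMIs. Il1b was at 6.87 and 4.97 CPM. The inducing list had 3 of 13 genes past 2-fold in RP and 1 in 377P, with a median log2 ratio of 0.14, against 0.03 over all genes. Of 16 genes induced along with the ligands through NF-κB, only Lcn2, an iron-sequestering antimicrobial protein, was past 2-fold, at 73.0 and 18.3 CPM, and the list's median was 0.03. Nfkbiz, a nuclear cofactor of NF-κB, was at 392 and 428 CPM in epithelium, a ratio of 0.915, and Ier3 at 358 and 187. Genes of neutrophil granules and effectors had 6 of 11 past 2-fold in RP and none in 377P (median 1.33), led by Ltf at 1235 and 258 CPM, Lcn2, and Ngp at 20.9 and 6.15; Ltf is also a gland product and moved with the gland markers given above, and this was not tested. Of the adhesion list, Itgam, the alpha chain of a leukocyte integrin, was at 6.87 and 1.38 CPM, and Selp, which codes for P-selectin of endothelium and platelets, at 45.4 and 16.8.

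Fibroblasts had 68 of the 76 genes with at least 20 UMIs, 7 at least 2-fold higher in RP and 10 in 377P, beside 3.6% and 2.99% of all genes. Saa3, an acute-phase gene of stroma, had 7.91 CPM in RP and 66.7 in 377P (ratio 0.119, interval 0.101 to 0.139), the farthest from 1 among the NF-κB targets. Cxcl13, which attracts B cells, was at 13.2 and 41.7 CPM, and Cxcl9, an interferon-induced chemokine, at 57.2 and 19.0, 3.004-fold higher in RP (2.68 to 3.37). Csf3, which codes for the growth factor of neutrophils, was at 17.4 and 20.9 CPM, and Ptgs2 and Nfkbiz were within 2-fold as well. The NF-κB list had a median of -0.12, against -0.03 over all genes.

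Macrophages had 9 of 63 such genes at least 2-fold higher in RP and 1 in 377P, beside 5.9% and 2.28% of all genes. Il1b was at 713 CPM in RP and 740 in 377P and Tnf at 299 and 191, both within 2-fold, and none of the 16 NF-κB targets was past it. The gap of Cxcl1 in this gate (2.32-fold) was therefore larger than that of any gene of that list with at least 20 UMIs. Cxcl13 was at 67.3 and 15.1 CPM and Cxcl9 at 24.5 and 10.6.

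Neutrophils had 7 of 59 genes at least 2-fold higher in RP and 2 in 377P, beside 6.19% and 4.29% of all genes. Tnf was at 232 CPM in RP and 110 in 377P, 2.11-fold higher (1.55 to 2.90), and Il1b at 1947 and 1036, 1.88-fold higher (1.70 to 2.08). Saa3 was at 155 and 20.9 CPM, Ccl7, which attracts monocytes, at 222 and 38.4, and Csf3 at 69.9 and 19.2, from 40 and 11 UMIs. Of 11 granule genes none was past 2-fold in RP and 1 was in 377P, beside 6.19% and 4.29% of all genes. It was Mpo, made by the precursors of neutrophils, at 192 and 630 CPM, a ratio of 0.305 (0.244 to 0.379). Camp was at 7996 and 12642, and the granule list had a median of -0.36 against -0.04 over all genes. Cxcr4, the receptor that holds neutrophils in bone marrow, was at 171 and 103 CPM.

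Of the pathway genes, blood endothelium had 6 of 54 at least 2-fold higher in RP and 4 in 377P, beside 4.17% and 3.12% of all genes. Ackr1, which carries chemokines across venous endothelium, was at 269 CPM in RP and 278 in 377P, and Csf3 at 1094 and 950, the highest Csf3 of the gates described here. Perivascular cells, the gate densest in Cxcl1, had 8 of 49 list genes past 2-fold in RP and 4 in 377P, beside 3.45% and 2.31%, with Csf3 at 31.9 and 12.7 CPM. T or NK cells, whose gate sat in clusters 17 and 25 for RP and 26 and 25 for 377P, had 13 of 58 past it in RP and 1 in 377P, beside 6.3% and 3.41%. Their Il17a, the cytokine that drives these ligands in epithelium and stroma, was at 450 CPM in RP and 89.9 in 377P, 5.01-fold higher in RP (4.51 to 5.56). No reading is drawn from the pathway counts, since the lists were chosen with earlier results known.

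Across 24 points (the 11 gates in each library, and 2 with at least 50 cells in 1 library only, neuronal cells of 377P and chondrocytes of RP), which share library and depth, the members formed groups by likeness of log2(CPM + 1). Cxcl2 and Cxcl3 had a Pearson r of 0.91, Cxcl2 and Cxcr2 0.76, Cxcl1 and Cxcl5 0.53, Cxcl1 and Cxcl2 0.31, and Cxcl1 and Cxcl3 0.22. Ppbp had 0.49 with Cxcl3, 0.39 with Cxcl2 and 0.36 with Cxcl5. Of 13928 genes, those most like Cxcl1 were Errfi1 (0.86), Myd88 (0.85) and Enpep (0.84). Those most like Cxcl2 were Pilra, Tlr13 and Ccrl2 (0.94 each), and those most like Cxcl3 were Cxcl2, Osm (0.89) and Tlr13 (0.89). For Cxcl5 they were Wnt5a (0.84), Gli1 (0.76) and Tmeff2 (0.76), for Ppbp Cbr2 (0.78), Slc9a4 (0.74) and Krt6b (0.73), and for Cxcr2 Fpr1 (0.98), Wfdc21 (0.96) and Retnlg (0.96), of which Retnlg is a marker of the neutrophil gate.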

How the data were processed

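The kit was 10x Chromium 3′ v3, per the labels' protocols. The deposited matrices hold raw UMI counts per gene and barcode, with no normalisation, written by Cell Ranger 7.0.1 per the file headers. Cell Ranger, STAR and the mm10 genome are named in the submitters' processing notes. Which annotation release was used and whether intronic reads were counted is not given in the sources used here.

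Barcodes needed 200 genes and no more than 20% mitochondrial UMIs (819 barcodes of RP and 115 of 377P were above this). Scrublet (scanpy 1.11.5, expected rate 12%) called 569 doublets in RP and 836 in 377P, and these were removed. Gates used 21 marker lists and asked for 3 detected markers. Leiden clusters were made without the members. Levels are summed counts per 1000000 UMIs of a gate with exact Poisson intervals, shares have Clopper-Pearson intervals, and ratios are RP over 377P. A ratio of 2 with at least 20 UMIs is the call rule, and 3 counts are the floor. Python 3.11.15, numpy 2.4.6, scipy 1.17.1 and pandas 2.3.3 were used, and the ratio and list steps were tested on simulated data. Promoters are from RefSeq and gene bounds from GENCODE.

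The members, lists and call rules were chosen with earlier results of these data known, and gate limits were set after the markers had been looked at. Named genes are the members in every gate, up to 3 genes of each list with the largest change among those with at least 50 UMIs, the single genes Il17a, Il1b, Tnf, Csf3, Nfkbiz, Ackr1, Pf4, Cxcl15 and Cxcr1, and the 3 genes most like each member among those with at least 200 UMIs. The median log2 ratio over all genes was within 0.1 of 0 in the 11 gates except the gland gate (0.15). Alternatives kept doublets, set stricter mitochondrial, depth and gate limits, replaced gates by clusters, scaled by the median ratio, weighed cells equally, thinned cells to 1000 UMIs and subtracted the B-gate level.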

Additional observations from a re-analysis of the deposited data

Results flagged for a closer look

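For 4 members the ratio of RP over 377P ran in opposite directions in a pair of gates, in each case the gates with the highest and the lowest ratio among those with at least 20 UMIs. With 1 library per title, the difference between the gates was not tested in any of them. Cxcl1 had a log2 ratio of 1.46 in neutrophils, where 1 cell of RP held 90 of 173 UMIs, and -0.49 in Schwann cells, where clusters in place of gates turned it to 0.70. Cxcl2 had 1.77 in epithelium and -0.63 in the gland gate, where the median over all genes was 0.15. In the gland gate 574 of 1800 cells of RP and 50 of 180 of 377P were near its limit. Cxcl5 had 3.63 in epithelium and -0.40 in fibroblasts. Ppbp had 5.09 in fibroblasts, where 1 cell held 87 of 140 UMIs of RP, and -2.07 in macrophages.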

How the results depend on the processing

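With 1 library per title, no library could be left out, a ratio has no replicate error, and depth limits Cxcr2 and Ppbp outside epithelium most. No paired analysis was possible because each title has 1 library. Over 45 ratios, 448 alternative values were computed, of which 411 kept the direction and 37 turned it. Of 17 ratios past 2-fold, 15 kept their direction throughout, and 164 of their 173 alternative values stayed past it. Thinning turned Cxcl3 in T or NK cells (-0.22 for 1.89, in log2 as below) and Cxcl5 in macrophages (-0.069 for 1.44). All 65 shares of cells were lower when thinned.

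Thinned values were 0.0029 for Cxcl1 in fibroblasts (-0.11 as reported), 1.59 for Cxcl1 in macrophages (1.21), -0.031 and 0.32 for Cxcl2 in macrophages (0.07) and neutrophils (0.54), -0.21 for Cxcl5 in fibroblasts (-0.40), and 1.48, 2.03, 3.43 and 4.54 for Cxcl2, Cxcl3, Cxcl5 and Ppbp in epithelium. With equal cell weights they were, in the same order, -0.035, 1.39, 0.034, 0.43 and -0.16 outside epithelium and 1.42, 1.95 and 3.43 within it (Cxcl2, Cxcl3, Cxcl5). Clusters in place of gates gave 0.41 and 0.35 for Cxcl2 in macrophages and neutrophils, -0.57 for Cxcl5 in fibroblasts and 1.84, 3.21 and 2.98 for Cxcl2, Cxcl5 and Ppbp in epithelium. After the B level was subtracted, Cxcl1 was -0.16 in fibroblasts and 1.35 in macrophages, Cxcl5 -0.55 in fibroblasts, and Cxcl2, Cxcl3 and Cxcl5 4.88, 2.03 and 4.30 in epithelium. Keeping doublets gave -0.086 for Cxcl1 in fibroblasts and 1.70 for Cxcl2 in epithelium, and the median ratio gave -0.087 and, for Cxcl2 in macrophages, 0.12. A stricter gate gave 0.64 for Cxcl2 in neutrophils. Chosen after seeing the data, leaving out the highest cells gave 1.36 for Cxcl1 in macrophages, cluster 3 alone gave 1.67, 1.62, 2.30 and 1.52 for Cxcl2, Cxcl3, Cxcl5 and Ppbp in epithelium, the finer cluster led by Sprr1a gave 1.999, 1.95, 4.83 and 1.29 and -0.17 for Cxcl1 (0.72 as reported), and the gate without clusters 3 and 31 gave 0.78, 1.18, 2.13 and 2.51. Subtraction lowers a denominator near background and makes no allowance for the lower depth of the B cells, and the other causes were not tested.

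With at least 100 UMIs asked of a pathway gene, fewer were tested and the counts past 2-fold were 5 in 377P fibroblasts (10 as reported), 3 and 0 in RP and 377P perivascular cells (8 and 4), 2 and 2 in endothelium (6 and 4), 4 and 0 in macrophages (9 and 1) and 4 and 1 in neutrophils (7 and 2). With at least 1 UMI they were 11 in 377P perivascular cells, 10 and 8 in RP and 377P endothelium, 3 in 377P macrophages and 11 in RP neutrophils.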

Other observations

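No gate took 2232 cells of RP and 1953 of 377P. In these cells Cxcl5 was at 185 CPM in RP and 15.3 in 377P, Ppbp at 62.1 and 10.3, and Cxcl2 at 600 and 536. Their median depth was 1680 UMIs in RP and 2033 in 377P.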
